A study of Mus musculus with 12 samples.

Results

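Aminoacyl-tRNA synthetases are the enzymes that attach each amino acid to its tRNA. The 36 synthetase genes described here were taken by name from the 20504 genes of the deposited table of counts on coding sequence (CDS), by a rule that uses no measured value. They fall into 20 genes for enzymes of the cytosol and 16 genes for enzymes of the mitochondrial matrix. The mitochondrial group does not cover every amino acid, and Gars and Kars, which encode both a cytosolic and a mitochondrial form from a single gene, were counted as cytosolic.

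The study made ligation-free ribosome profiling and RNA-Seq libraries from the brain of adult mice 3 months of age. All 6 mice carried Camk2a-cre and the RiboTag allele of Rpl22, so that Cre expressed from the Camk2a promoter, which is active in excitatory neurons of the forebrain, placed an HA tag on the ribosomes of those cells. Mice A and B were given vehicle (Captisol, "Untreated" in the labels) and mice C and D were given AZD-8055, which inhibits mTOR by competing with ATP, at 100 mg/kg by oral gavage 1 h before collection, and the right frontal lobe of each of the 4 gave a footprint library and a matched poly(A) RNA-Seq library. Mice E and F, labelled untreated, each gave RNA-Seq of the tissue homogenate (input) and of polysomes captured with an antibody to HA (IP). Each group thus held 2 mice, and a footprint library of whole tissue mixes all of its cell types.

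Charging is the step before translation at which the genetic code is read, and a cell keeps separate sets of enzymes for cytosolic and mitochondrial protein synthesis, both encoded in the nucleus and both made on cytosolic ribosomes. In the cytosol 8 of the enzymes (Dars, Eprs, Iars, Kars, Lars, Mars, Qars and Rars) assemble with the scaffold proteins encoded by Aimp1, Aimp2 and Eef1e1 into the multisynthetase complex, while the others act outside it. Many cytosolic synthetase genes are known targets of ATF4, a transcription factor that is induced when amino acids run short and that also acts downstream of mTORC1. mTOR itself controls the translation of mRNAs that begin with a C and a run of pyrimidines, a class that holds the mRNAs of ribosomal proteins and elongation factors. Mutations in synthetase genes are known causes of neuropathies and of diseases of white matter.

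The sequences at the transcription starts of these genes are shown because both kinds of control are read there. Of the 36 members, 26 had a promoter entry of 300 bases (250 before and 50 after the start) in RefSeq's GRCm38.p6 annotation, 12 cytosolic and 14 mitochondrial. The members with no entry were Cars, Hars, Lars, Mars, Nars, Rars, Vars, Wars, Hars2 and Pars2. The letters TGATGNAA, the core to which ATF4 and its partners bind, were searched on both strands. They were present in 5 of the 12 cytosolic promoters, in 0 of the 14 mitochondrial promoters, in 7 of 20 promoters of other known ATF4 targets and in 4.51% of the promoters of all 27025 genes (3.97% of the 15153 of them that are in the CDS table). The 5 genes, all on the list of known ATF4 targets, are shown with 30 bases of their own strand around a match, which is in capitals. In all but Yars the match is on the opposite strand. Positions are those of the printed bases.
Aars (chr8:111033840-111033869, + strand): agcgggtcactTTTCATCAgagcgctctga
Gars (chr6:55037960-55037989, + strand): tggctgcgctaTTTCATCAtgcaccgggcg
Iars (chr13:49682126-49682155, + strand): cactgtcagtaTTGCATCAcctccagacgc
Tars (chr15:11399655-11399684, − strand): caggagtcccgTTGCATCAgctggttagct
Yars (chr4:129189895-129189924, + strand): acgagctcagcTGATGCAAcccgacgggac

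The 5 printed matches lay between 30 bases before and 10 bases after the start that the table gives, counted to the leftmost base of the match. A start with C followed by 4 pyrimidines, the plainest form of the element through which mTOR acts, was found in 0 of the 12 cytosolic and 1 of the 14 mitochondrial promoters (Wars2), against 14 of 58 promoters of cytosolic ribosomal proteins and 3.01% of all genes (2.73% of those in the CDS table). A gene with several entries was counted if any of them held the letters. The starts that the promoter table gives for Aars, Yars and Wars2 lie inside the longer spans annotated for these genes, so other starts upstream were not searched. A match or its absence describes these letters in this window only. Most promoters of cytosolic ribosomal proteins lacked the pyrimidine start too, so its absence here does not show that a gene lacks the element.

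The libraries held 3503873 to 15585831 counts on CDS, and the footprint library of mouse A was the deepest of the 4 footprint libraries. Within every group the spread between mice exceeded counting error (chi-square per degree of freedom from 2.74 to 18.2). Depth sets how well each group can be read. Cytosolic members had 155 footprints (Farsa, mouse C) to 3236 (Nars, mouse A) in a library, with a median of 526, and 524 to 3406 RNA-Seq counts. Mitochondrial members had 16 footprints (Wars2, mouse C) to 522 (Iars2, mouse A), with a median of 88, and 32 to 983 RNA-Seq counts.

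As shares of all counts, the 2 groups differed in how RNA and footprints compared. The 20 cytosolic members took 0.285% and 0.272% of the RNA-Seq counts of vehicle-treated mice A and B, and 0.277% and 0.277% of their footprints. The 16 mitochondrial members took 0.0477% and 0.0499% of the RNA-Seq counts and 0.0301% and 0.0330% of the footprints. The footprint share of the mitochondrial group was thus below its RNA share in both mice, while that of the cytosolic group was close to its RNA share in both.

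Translation efficiency (TE) gives this gene by gene. TE was the footprint count of a gene over its RNA-Seq count on CDS in the same mouse, each divided by its library's DESeq2 size factor, so that a log2 TE of 0 is near the average gene. A TE needed 75 counts in each kind of library over mice A and B, and 10882 genes had one, with a median log2 TE of 0.016 and a standard deviation of 0.99 across genes. In vehicle, the median log2 TE of the 20 cytosolic members was 0.048, with 11 above the all-gene median and 9 below it. For the 15 mitochondrial members with a TE it was −0.51, with 3 above and 12 below. Wars2 fell short of the limit with 36 RNA-Seq counts in each of mice A and B. Both groups spread less than all genes did, with standard deviations of 0.46 and 0.53.

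**Figure D1:**
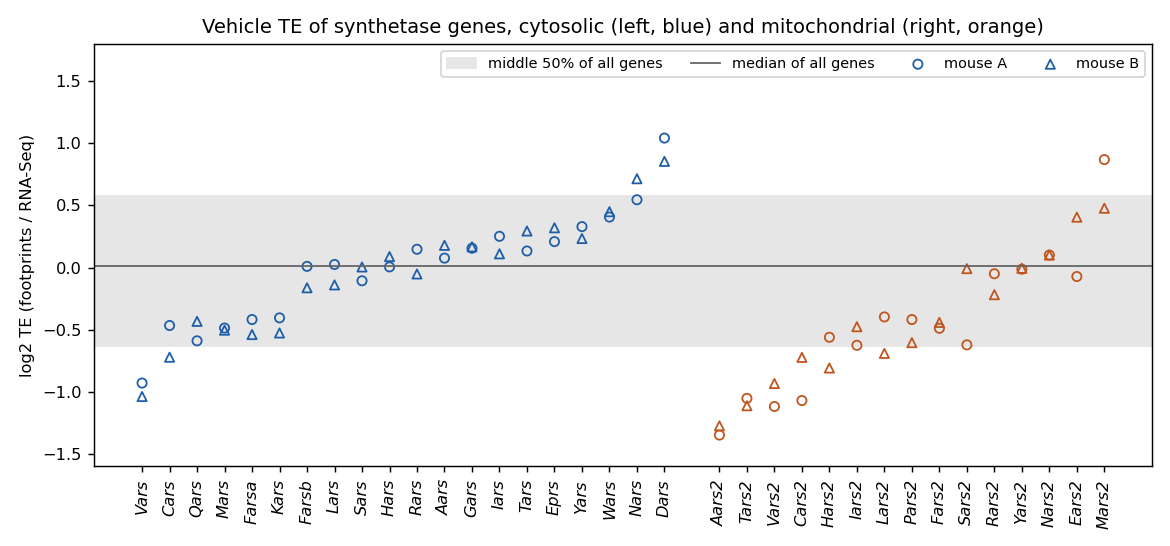
The vertical axis gives log2 TE on CDS in mice A (circles) and B (triangles) for the 35 synthetase genes with a TE, ordered by their mean within the cytosolic (blue) and mitochondrial (orange) groups, with the median of all genes as a line and their middle 50% as a grey band. Most cytosolic genes sit on both sides of the line within the band, and 10 of the 15 mitochondrial genes lie under the median of all genes in both mice.

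Whether a gene departed from the average gene was tested with edgeR's quasi-likelihood test of footprints against RNA in vehicle, with Benjamini-Hochberg adjustment over 11797 genes and a threshold of 0.05. Of all genes, 36.5% were called higher and 37.3% lower, so a call is common and the direction of the calls is the more telling part. Of the 20 cytosolic members, 9 were called higher (Aars, Dars, Eprs, Gars, Iars, Nars, Tars, Wars and Yars) and 6 lower (Cars, Farsa, Kars, Mars, Qars and Vars). Of the 15 mitochondrial members tested, 1 was called higher (Mars2) and 8 lower (Aars2, Cars2, Fars2, Hars2, Iars2, Lars2, Tars2 and Vars2). The 4 smallest rises, of Aars, Gars, Iars and Tars, were at most 0.25 on the log2 scale and were no longer called with scaling by total counts, which moved the median of all genes by −0.14. The cytosolic split was then 5 higher and 6 lower, and the mitochondrial split 1 higher and 10 lower. The shares of all genes called with that scaling are not given here.

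Dars, which charges aspartate, had the highest TE of the cytosolic group. With 1244 and 546 footprints in mice A and B on 669 and 688 RNA-Seq counts, its log2 TE was 1.04 and 0.86, which placed it at percentile 86.3 of all genes. The fitted log2 ratio was 1.00 ± 0.095 (SE), with an adjusted p of 1.11e-07. Dars was the only cytosolic member that was also over 2-fold in this fit. Nars (asparagine) followed at 0.55 and 0.72, and Wars (tryptophan) at 0.41 and 0.45. Both mice placed each of these 3 genes above the median of all genes.

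Vars, which charges valine, was at the other end of the cytosolic group. With 467 and 233 footprints on 985 and 1090 RNA-Seq counts, its log2 TE was −0.93 and −1.04, at percentile 15.5. The fitted value was −0.94 ± 0.079 (SE), with an adjusted p of 2.61e-08 in edgeR's quasi-likelihood test. Cars (cysteine) and Qars (glutamine) were next, with log2 TEs of −0.47 and −0.72 for Cars and of −0.59 and −0.43 for Qars. Vars and Dars were both well covered, and Vars lay below Dars in both mice.

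In the mitochondrial group Aars2 (alanine) was lowest, with log2 TEs of −1.35 and −1.27 and a fitted value of −1.28 ± 0.11 (SE, adjusted p = 2.86e-08 in edgeR's quasi-likelihood test), at the 9.72 percentile of all genes. Tars2 (threonine) had log2 TEs of −1.05 and −1.11 and Vars2 (valine) of −1.12 and −0.93. These 3 were the mitochondrial members that remained past the threshold when a 2-fold difference was also asked for. Mars2, which charges methionine and is encoded by a short gene of 2882 bases in the annotation, had log2 TEs of 0.87 and 0.48, from 160 and 66 footprints on 97 and 108 RNA-Seq counts. Its fitted value was 0.74 ± 0.18 (SE, adjusted p = 0.0018 in edgeR's quasi-likelihood test) and was no longer called without mouse A. Ears2 (glutamate) and Nars2 (asparagine) were the other members of the group with a mean above the median of all genes. Ears2 had −0.072 and 0.41 from 67 and 50 footprints, on both sides of that median, and Nars2 had 0.10 in both mice.

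Cytosolic and mitochondrial enzymes that charge the same amino acid could be paired for 15 amino acids with a TE on both sides, with Eprs, which charges both glutamate and proline, set against Ears2 and against Pars2, and Farsa, the catalytic subunit of the cytosolic enzyme, against Fars2. The cytosolic gene had the higher TE in both mice in 11 pairs and the mitochondrial gene in 1, and the median difference was 0.30 on the log2 scale. Aars lay above Aars2 by 1.42 in mouse A and by 1.45 in mouse B. Tars lay above Tars2 by 1.19 and 1.41. Mars against Mars2 was the pair in the opposite direction, at −1.36 and −0.98. The pairs for valine, phenylalanine and glutamate changed sign between the mice, so neither partner can be called higher there. For valine, both Vars and Vars2 were among the lowest of their groups.

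Other genes of the translation machinery give the scale of these values. The cytosolic ribosomal protein genes had a median log2 TE of −0.96 and the 76 mitochondrial ribosomal protein genes one of 0.13, so the low values of mitochondrial synthetases were not shared by mitochondrial ribosomal proteins. Of the 77 cytosolic ribosomal protein genes tested, 72 were called lower and 2 higher in edgeR's test, and of the 76 mitochondrial ones 17 were called lower and 34 higher. The 4 genes that act beside the mitochondrial synthetases (Qrsl1, Gatb and Gatc, which make glutaminyl-tRNA from glutamyl-tRNA, and Mtfmt, which formylates the initiator) had a median of −0.18 with 1 called lower. Within the cytosolic group, enzymes of the multisynthetase complex had a median of −0.0042 (3 called higher, 3 lower, of 8) and those outside it 0.088 (6 higher, 3 lower, of 12). The 3 scaffold genes had a median of 0.34, with 2 called higher and 0 lower.

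The second comparison asked what 1 h of mTOR inhibition did to these genes. After AZD-8055, 0 of the 20 cytosolic and 0 of the 15 mitochondrial members tested were called for a change in TE by edgeR's quasi-likelihood interaction test, in which 0.0763% of 11797 genes were called higher and 0.788% lower. At an unadjusted p under 0.05 there were 2 cytosolic members (Qars and Dars) and 0 mitochondrial members, and DESeq2 called 0 in both groups. The median change in TE was −0.042 on the log2 scale for the cytosolic and −0.058 for the mitochondrial members, beside −0.011 for all genes. With calls under 1% of all genes, a count of 0 among so few members is also near the background.

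The same test called cytosolic ribosomal protein genes in large numbers. Of 77 such genes, 72 fell in TE and 0 rose, with a median change of −0.90. These libraries could thus detect falls of about that size in those genes. Whether smaller changes, or changes in members with few footprints, would be called is not shown by this. Eef1a1, which brings charged tRNA to the ribosome, fell by 1.59 on the log2 scale, and Eef2, the translocase, by 1.17. Of the 6 cytosolic elongation factor genes, 4 fell (Eef1a1, Eef2, Eef1b2 and Eef1g). The synthetases act just upstream of Eef1a1 in the supply of amino acids to the ribosome. The 95% interval of the TE change lay above the median of the ribosomal protein genes in all 20 cytosolic members and in 13 of the 15 mitochondrial members, the exceptions being Sars2 and Pars2. It lay within 2-fold in either direction in all 20 cytosolic and in 13 of the 15 mitochondrial members.

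**Figure D2:**
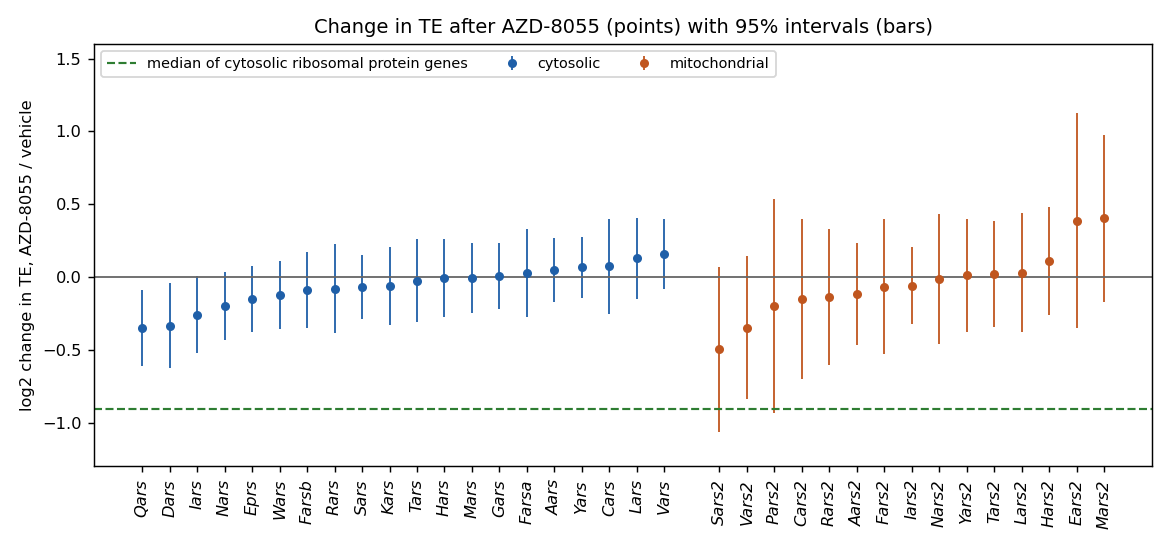
The vertical axis gives the log2 change in TE, AZD-8055 over vehicle, from edgeR's fit over 8 libraries, with 95% intervals as bars, for 20 cytosolic (blue) and 15 mitochondrial (orange) synthetase genes. The dashed green line is the median of the cytosolic ribosomal protein genes (−0.90), and all 20 cytosolic intervals end above it.

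Qars had the largest fall among the cytosolic values. Its log2 TE was −0.59 and −0.43 in vehicle mice A and B, and −0.78 and −0.96 in AZD-8055 mice C and D. The groups did not overlap, and the fitted change was −0.35 ± 0.12 (SE), with a 95% interval of −0.61 to −0.087 and an adjusted p of 0.50. Dars had log2 TEs of 1.04 and 0.86 in vehicle and 0.84 and 0.42 after AZD-8055, a fitted change of −0.33 ± 0.14 (SE, adjusted p = 0.62). Mouse D lay below mouse C in both genes, and the median log2 TE of the whole cytosolic group was 0.051, 0.047, 0.12 and −0.11 in mice A to D, so the spread between mice C and D was as large as any shift from vehicle.

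Among the mitochondrial members, Sars2 (serine) had the lowest change. Its log2 TE was −0.62 and −0.0082 in vehicle and −0.71 and −0.97 after AZD-8055, a fitted change of −0.50 ± 0.27 (SE) with a 95% interval of −1.06 to 0.069. Mars2 had the highest, with log2 TEs of 0.87 and 0.48 in vehicle and 1.14 and 1.06 after AZD-8055, a fitted change of 0.40 ± 0.27 (SE) with an interval of −0.17 to 0.98. The groups of Sars2 and Mars2 did not overlap, yet the counts behind them were small, with 40 to 105 footprints for Sars2 and 54 to 160 for Mars2 in a library. Among members with a TE in all 4 mice, both AZD-8055 values lay below both vehicle values in 4 of 20 cytosolic and 4 of 14 mitochondrial members, against 21.2% of all 9890 genes with such values. They lay above in 2 and 2, against 16.1% of all genes. For the 77 ribosomal protein genes both values lay below in 77.

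Footprints and RNA taken alone gave the same picture. Of the footprint counts, 0 of 20 cytosolic and 0 of 14 mitochondrial members were called by edgeR's quasi-likelihood test, where 0.0468% of 10695 genes were called higher and 0.982% lower. The medians were −0.0064 and −0.023 on the log2 scale, beside −0.92 for the ribosomal protein genes, of which 73 of 77 fell. An unadjusted p under 0.05 was reached by 1 cytosolic member, Vars, and by 0 mitochondrial members. DESeq2 called 0, and gave no adjusted p for 7 of the 14 mitochondrial members. Vars had 383.0 and 364.2 normalized footprints in vehicle and 467.8 and 453.9 after AZD-8055. Its change was 0.30 ± 0.10 (SE, adjusted p = 0.27).

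Dars had 1020 and 853.5 normalized footprints in vehicle and 918.6 and 723.6 after AZD-8055, and Iars (isoleucine) had 834.9 and 778.5 against 784.0 and 621.7. In both genes mouse C lay between the vehicle mice and mouse D was the lowest. Without mouse C, the footprint change was −0.35 in Dars and −0.35 in Iars. That fit rests on mouse D as the only AZD-8055 library, so its calls are not used. Both are enzymes of the multisynthetase complex. The median footprint change of its 8 enzymes was −0.13, that of the 12 cytosolic members outside it 0.018, and that of the 3 scaffold genes −0.27, with 0 called in each of these lists by edgeR. Aimp1, a scaffold, had the lowest value of the 3, with a footprint change of −0.51 ± 0.12 (SE, adjusted p = 0.10) and a TE change of −0.56 ± 0.15 (SE, adjusted p = 0.13).

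**Figure D3:**
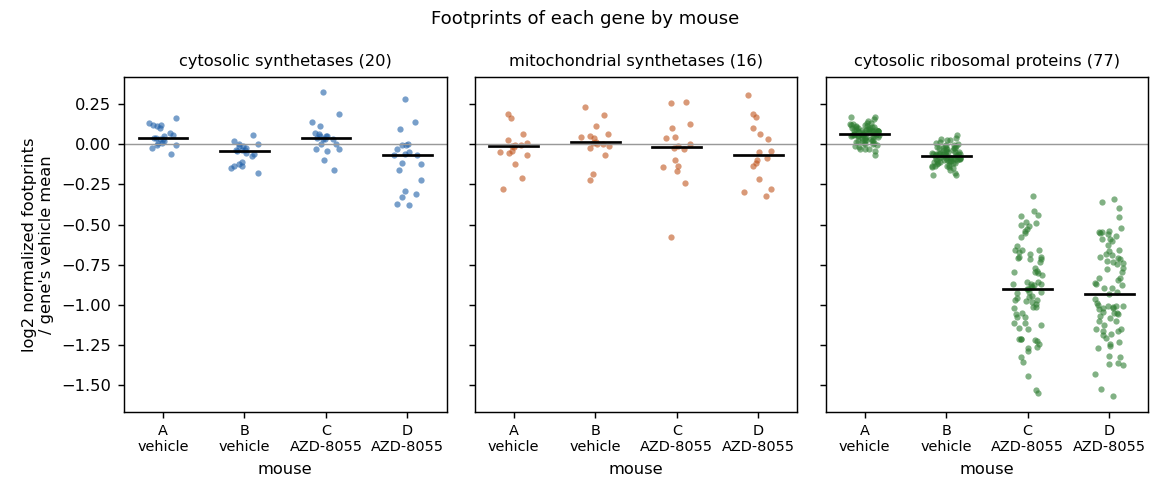
Each point is a gene, and the vertical axis gives its normalized footprint count in a mouse over its vehicle mean, on the log2 scale, with the median of each list as a black bar. The synthetase lists stay near 0 in all 4 mice, while the ribosomal protein genes lie under their vehicle level in both AZD-8055 mice.

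RNA levels did not separate the groups either. In the RNA-Seq counts 0 of 20 cytosolic and 0 of 15 mitochondrial members were called by edgeR's quasi-likelihood test, with 0.0575% of 12182 genes called higher and 0.0903% lower. The medians were 0.0090 and 0.012. An unadjusted p under 0.05 was reached by 0 cytosolic members and by 1 mitochondrial member, Sars2 (0.33 ± 0.15, SE, adjusted p = 0.59 in edgeR). DESeq2 called 0 and gave no adjusted p for 10 of the 15 mitochondrial members. The 12 cytosolic members on the list of known ATF4 targets had a median RNA change of 0.00069, and the 18 other ATF4 targets that could be tested had one of −0.059, with 0 called in both lists and 2 of the 18 at an unadjusted p under 0.05. The 95% interval of the RNA change lay within 2-fold for all 20 cytosolic and all 15 mitochondrial members. These are RNA levels 1 h after dosing, and later times were not analysed here.

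As shares of the library, the cytosolic members took 0.277% and 0.267% of the footprints of mice C and D, and the mitochondrial members 0.0311% and 0.0315%. Both were close to the vehicle values. The cytosolic ribosomal protein genes went from 1.26% and 1.23% in vehicle to 0.679% and 0.698% after AZD-8055.

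The third comparison set the RiboTag IP against the input of mice E and F, and asks which synthetase mRNAs were on the tagged ribosomes of Camk2a-expressing neurons. Enrichment was the IP count over the input count of the same mouse on exons, after DESeq2 size factors. The capture worked as its label states: 6 of the 7 excitatory neuron markers were called higher and the seventh, Camk2a, was not called (0.27, adjusted p = 0.11, and −0.66 on CDS counts), while all 28 markers of inhibitory neurons, astrocytes, oligodendrocytes and their precursors, microglia and endothelial cells were called lower by edgeR's quasi-likelihood test. Markers of the other cell types were depleted and not absent. The summed astrocyte markers, for example, went from 1778 and 1734 CPM (counts scaled to library size) in input to 148.3 and 176.1 in IP. A lower value in IP can reflect input RNA from other cell types, whose ribosomes carry no tag, or less of the mRNA on each neuron's ribosomes. These cannot be told apart here.

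Cytosolic synthetases were mostly higher in the IP. edgeR's quasi-likelihood test called 12 of 20 higher (Aars, Farsa, Farsb, Gars, Hars, Kars, Nars, Rars, Sars, Tars, Wars and Yars) and 5 lower (Dars, Eprs, Iars, Mars and Vars), where 33.7% of 13254 genes were called higher and 35.7% lower. Of the 16 mitochondrial members 3 were called higher (Cars2, Pars2 and Yars2) and 5 lower (Hars2, Mars2, Nars2, Vars2 and Wars2). The median fitted log2 change was 0.41 for the cytosolic and 0.16 for the mitochondrial members, beside −0.034 for all genes tested. With the mouse as a block, which pairs the input and IP of an animal, 7 mitochondrial members were called higher and 6 lower. The shares of all genes called in that fit are not given here, and the 33.7% and 35.7% above do not apply to it. Scaling by total counts moved the median of all genes by −0.28. The cytosolic split was then 9 higher and 7 lower and the mitochondrial split 0 higher and 7 lower. All-gene shares for that scaling are not given here either.

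**Figure D4:**
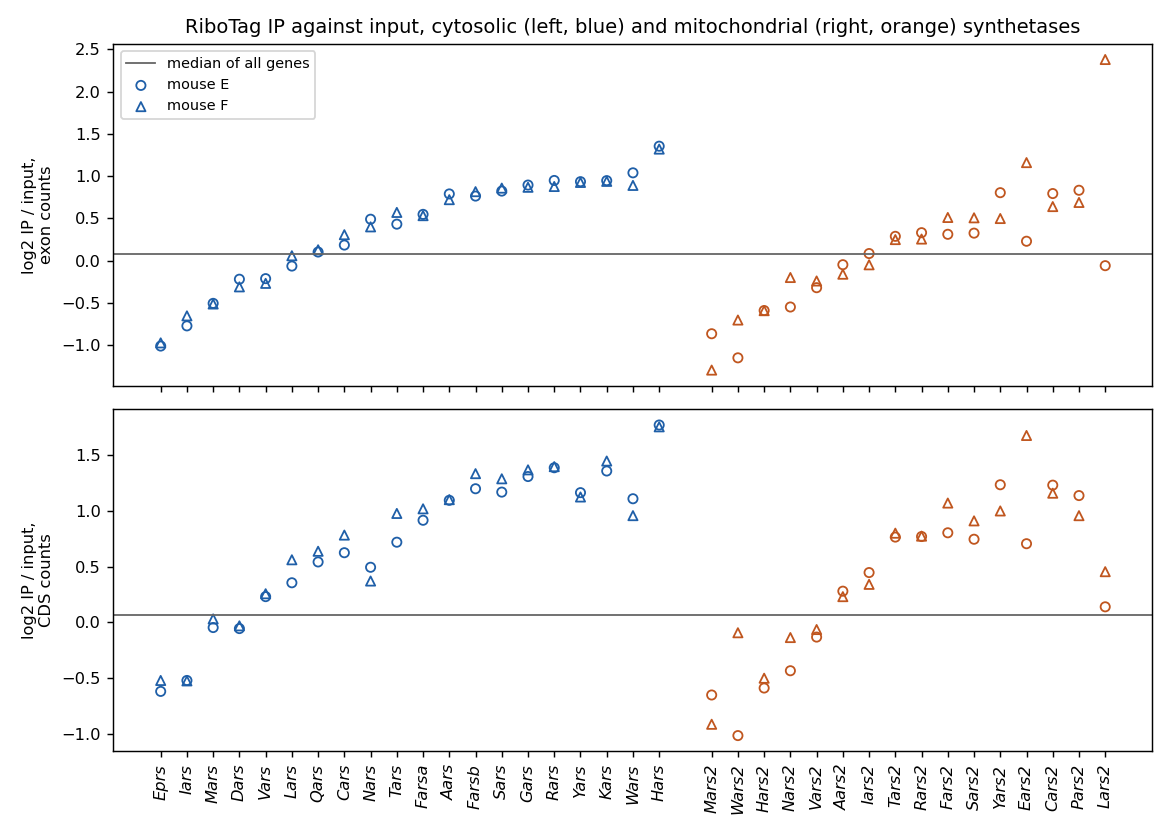
The vertical axes give the log2 ratio of IP to input in mice E (circles) and F (triangles) on exon counts (top) and CDS counts (bottom) for the 36 synthetase genes, cytosolic in blue and mitochondrial in orange, ordered by the exon value, with the median of all genes as a line. On exons Hars is highest and Eprs lowest in the cytosolic group in both mice, and the exon value of Lars2 is −0.060 in mouse E and 2.38 in mouse F.

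On exon counts, cytosolic enzymes inside and outside the multisynthetase complex had different tallies. Of the 8 enzymes of the complex, 2 were called higher (Kars and Rars) and 4 lower (Dars, Eprs, Iars and Mars), with a median of −0.25. Of the 12 outside it, 10 were called higher and 1, Vars, lower, with a median of 0.66. On CDS counts the 8 enzymes of the complex had 4 called higher and 2 lower, and the 12 outside it 11 higher and 0 lower, so the balance within the complex turned over between the tables. The 3 scaffold genes Aimp1, Aimp2 and Eef1e1 were all called higher, with changes of 0.95, 1.16 and 1.02. Genes for members of the complex therefore differed among themselves by more than their replicate error, from −1.11 (Eprs) to 1.16 (Aimp2). By catalytic class, 9 of 10 cytosolic class II enzymes were called higher and 1 lower on exons, against 3 higher and 3 lower of 9 in class I. The even split of class I did not hold on CDS, where 6 were called higher and 1 lower, beside 9 higher and 0 lower in class II. Eprs, a bifunctional enzyme, was in neither class list and was called lower on exons (−1.11) and on CDS (−0.70). Complex and class overlap, since most class I enzymes here are in the complex, and the difference between lists was not tested.

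Hars, which charges histidine, had the highest enrichment of the cytosolic members. It had 1810 normalized counts in input and 4630 in IP of mouse E, and 1830 and 4572 in mouse F, or log2 enrichments of 1.36 and 1.32. The fitted change was 1.22 ± 0.085 (SE), with an adjusted p of 9.64e-05 in edgeR's quasi-likelihood test. On exon counts Hars was the only cytosolic member past a 2-fold limit upward. On CDS counts Farsb, Gars, Kars, Rars, Sars and Yars were also called higher and over 2-fold, from 1.01 (Yars) to 1.27 (Kars). On exons Wars followed Hars at 1.04 and 0.89 and Kars (lysine) at 0.95 and 0.94. In each of these genes the mice agreed to within 0.2 on the log2 scale.

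Eprs, the bifunctional enzyme for glutamate and proline, was the lowest. It had 2030 normalized counts in input and 1007 in IP of mouse E, and 2110 and 1074 in mouse F, or log2 enrichments of −1.01 and −0.97. The fitted change was −1.11 ± 0.095 (SE, adjusted p = 1.68e-04 in edgeR's quasi-likelihood test). Iars was at −0.77 and −0.65, and Mars at −0.51 and −0.51. Of the 28 markers of other cell types, all except the astrocyte marker Aldh1l1 (−0.95) had a lower fitted value than Eprs, down to −4.83 for the endothelial marker Flt1.

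Hars2, the mitochondrial enzyme for histidine, lies beside Hars on the same chromosome, and the annotated spans of the 2 genes overlap by 4 bases. Its log2 enrichment was −0.59 in both mice, with 860.4 and 822.2 normalized counts in input and 571.2 and 545.2 in IP, and the fitted change was −0.71 ± 0.10 (SE, adjusted p = 0.0012 in edgeR). Neighbouring genes for enzymes of the same amino acid thus went in opposite directions. Their TEs also differed, at 0.0057 and 0.089 for Hars against −0.56 and −0.81 for Hars2. Mars2 had the lowest fitted value of the mitochondrial group, with enrichments of −0.87 and −1.296 and a change of −1.21 ± 0.21 (SE, adjusted p = 0.0026 in edgeR's test), from 219 and 378 exon counts in input and 82 and 94 in IP. Among the 15 mitochondrial members with a TE, Mars2 had the highest mean TE in vehicle and the lowest mean exon enrichment in the IP. Wars2 was at −1.15 and −0.70 from 55 and 75 counts in IP.

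Of the mitochondrial members called higher, Cars2 (cysteine) had enrichments of 0.79 and 0.64, Pars2 (proline) of 0.83 and 0.69 and Yars2 (tyrosine) of 0.80 and 0.50. Ears2 had 0.23 and 1.16 from 104 and 157 counts in IP and was not called (0.57 ± 0.27, SE, adjusted p = 0.097 in edgeR). Compared by amino acid, the cytosolic gene had the higher mean enrichment in 11 of 16 pairs. The other 5 were Eprs against Ears2 and against Pars2, Cars against Cars2, Iars against Iars2 and Lars against Lars2. The last of these rests on the exon count of Lars2, and on CDS Lars had enrichments of 0.36 and 0.56 and Lars2 of 0.14 and 0.46, with the cytosolic gene higher in both mice. For comparison, 74 of 75 cytosolic and 74 of 76 mitochondrial ribosomal protein genes were called higher, so the mitochondrial synthetases did not follow the mitochondrial ribosomal proteins in the IP any more than in TE.

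Lars2 shows where exon counts do not stand for the coding sequence. It had 39629 and 13167 exon counts in the inputs of mice E and F and 25942 and 41895 in the IPs, more than any other member, but CDS counts made up 0.921% and 3.33% of these in input and 0.783% and 0.611% in IP. Mouse E gave an exon enrichment of −0.060 and mouse F one of 2.38, while on CDS it was 0.14 and 0.46. The exon value therefore rests on reads outside the coding sequence and differs between mice, and the CDS value is the one that concerns the synthetase. The part that these reads play was not tested further. In Mars, CDS counts exceeded exon counts (102% to 104% of them), so the 2 tables did not assign reads of this gene in the same way.

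On CDS counts more members were higher in the IP. edgeR called 15 cytosolic members higher and 2 lower (Eprs and Iars), and 8 mitochondrial members higher and 2 lower (Hars2 and Mars2), where 36.5% of 12211 genes were called higher and 39% lower. The 12 cytosolic and 3 mitochondrial members called higher on exons were all called higher on CDS as well. Dars, Mars, Nars2, Vars2 and Wars2 were lower on exons and not called on CDS, and Vars had the opposite sign there (0.11). The median share of exon counts that lay on CDS moved with the comparison. Over all genes it was 66.4% and 65.1% in input and 52.5% and 48.8% in IP, while in the cytosolic members it was 96.5% and 95.9% in input and 94.96% and 92.7% in IP. Its part in the difference between the tables was not tested. On CDS the median was 0.095 for the 8 enzymes of the complex and 0.93 for the 12 outside it, beside −0.067 for all genes.

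The mice of the IP agreed on the order of the groups. On exons the cytosolic members had a median enrichment of 0.52 and 0.55 in mice E and F, and the mitochondrial members one of 0.16 and 0.25, beside 0.089 and 0.074 for all genes. In mouse E the sum over the cytosolic members was 0.250% of CDS counts in input and 0.314% in IP, and in mouse F 0.265% and 0.334%. For the mitochondrial members these shares were 0.0494% and 0.0458% in mouse E and 0.0509% and 0.0477% in mouse F. As shares of all CDS counts the cytosolic members were thus higher in IP and the mitochondrial members lower in both mice. The direction of the mitochondrial members depends on the scaling, since with size factors on the same CDS counts mice E and F gave them a median enrichment of 0.58 and 0.61.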

How the data were processed

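The authors deposited counts of reads per gene, without normalization, per CDS (12 libraries) and per exon set (8 RNA-Seq libraries). After trimming, Bowtie2 served to discard rRNA, TopHat2 to align and HTSeq to count, and the submitters' processing notes name the mm10 build. The annotation is not given in the sources used here. The rule for the members reads gene names alone, but the members and gene lists were proposed and chosen with earlier results of these data known.

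Counts were tested with edgeR 4.0.16 (TMM, quasi-likelihood, adjusted p by Benjamini-Hochberg below 0.05; R 4.3.3), keeping genes whose libraries averaged 37 counts or more. The study itself tested TE with RiboDiff, which was not used here. TE and enrichment used size factors of DESeq2 1.42.0. All tests were fitted on all genes. They were also run on simulated counts, with planted changes larger than any AZD-8055 change of a member. Those runs do not show how often changes of the members' size would be called. Tables and figures used Python 3.11.15, pandas 2.3.3, numpy 2.4.6 and matplotlib 3.10.9. Libraries of one letter come from one animal. Across genes, differences between mice correlated between library kinds at 0.25 (A and B), 0.24 (C and D) and 0.55 (E and F), so the mouse was an alternative block. All 36 members may be named, and others only from the lists. Alternatives were DESeq2, other scalings and filters, a 2-fold limit, the other table and leaving out a mouse. A further promoter sequence is not reported here.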

Additional observations from a re-analysis of the deposited data

How the results depend on the processing

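After AZD-8055 the count of members called for TE and RNA was 0 in both groups under every alternative run. That for footprints was 0 except in the fit without mouse C, where mouse D was the only AZD-8055 library. The other counts moved with the setting. Apart from CDS counts, the shares of all genes called under these settings are not given here. In vehicle TE the 9 cytosolic members called higher became 5 with no filter on low counts, 5 with total counts, 1 with a 2-fold limit and 4 to 7 when a mouse was left out. The 6 called lower became 0 with a 2-fold limit. The mitochondrial member called higher became 2 with no filter, 0 with a 2-fold limit and 0 to 1 without a mouse, and the 8 called lower became 3 with a 2-fold limit. The median log2 TE relative to all genes was 0.032 for the cytosolic members and reversed to −0.043 with a limit of 200 counts, while that of the mitochondrial members was −0.53, −0.63 with that limit and −0.49 without either mouse.

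In the IP the 12 cytosolic members called higher became 1 with a 2-fold limit, and the 5 called lower became 2 on CDS counts, 3 with no filter and 1 with a 2-fold limit. The 3 mitochondrial members called higher became 8 on CDS counts, 0 with total counts and 0 with a 2-fold limit. The 5 called lower became 2 on CDS counts, 3 with DESeq2, 3 with no filter and 2 with a 2-fold limit. Vars reversed to 0.11 on CDS counts. With the mouse as a block 7 mitochondrial members were called higher (adding Ears2, Fars2, Lars2 and Sars2) and 6 lower (adding Aars2), and the block changed no call of a cytosolic member. The cause of these moves was not tested, apart from limits that ask for more by construction. Leaving out a mouse of the IP left no residual degrees of freedom, so only values were taken, with a cytosolic median of 0.39 to 0.46. Depth limits the mitochondrial members most, with a median of 88 footprints in a library and 2 of 15 TE intervals that reached past 2-fold.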
